A study of Arabidopsis thaliana with 24 samples.

Results

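The transcripts of untreated (Ctrl) roots were set against those of untreated shoots from the same kind of Arabidopsis thaliana seedling, 3 days after transfer to the experimental medium (day 3). The genes were those with a row in both of the deposited expression tables, matched by locus, which gave 18586 genes of the 21245 found in either table. A further 1750 genes had a row in the root table only and 909 in the shoot table only. The study grew Col-0 seedlings on agar with 0.1X MS medium for 5 days under 16 h of light and 8 h of dark, and then moved pools of 160 seedlings to fresh medium. Some pools received 2 mM titanium (Ti) and the others, used here, received none. Roots and shoots of each pool were collected separately, and the root (Ctrl-R-3D) and shoot (Ctrl-S-3D) groups had 3 libraries each, among 24 libraries and 8 groups in all. A pool mixes every cell type of the organ, so fewer cells of a type and less RNA per cell cannot be told apart.

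The tables gave CPM values, read counts scaled to a common library total, on a log2 scale, and the 3 columns of a group held the same value in every row. Each gene therefore had 1 fitted value per organ, with no replicate error, no standard error and no test. Roots and shoots had also been normalized in separate tables. For these reasons differences were read only when large, and "enriched" below means at least 8-fold higher in 1 organ than in the other, a log2 difference of at least 3 after levels under 0.1 CPM were set to 0.1 CPM. Read depth was not given in the tables, so no counting interval could be attached to a level. The paper states that genes with low CPM were filtered out, and that the tissues were analysed independently. A gene with a row for 1 organ only therefore has no level for the other organ, and its absence there is not shown.

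Seedling organs divide their labour. The shoot carries the meristem that makes leaves and the green cells that capture light, fix carbon and recover the carbon lost in photorespiration. The root takes up water and ions through its epidermis and root hairs, filters them at the endodermis, whose walls carry the lignin of the Casparian strip and later suberin, and releases defence compounds and iron chelators into its surroundings.

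Across the 18586 genes, 1224 (6.59%) were enriched in roots and 939 (5.05%) in shoots. The median difference, root minus shoot, was 0.65 on the log2 scale rather than 0, and the 15 reference genes, chosen for their steady use in quantitative PCR, had a median of 0.82. Differences are given below as the tables stand, so a gene at 0.65 sat at the middle of all genes. With the all-gene median set to 0, the counts became 842 for roots and 1349 for shoots, which moved the root part of the calls from 56.6% to 38.4%. Levels in the 2 organs were ranked alike only in part, with a Spearman correlation across genes of 0.66. The same measure was 0.998 between Ctrl and Ti roots and 0.996 between Ctrl and Ti shoots, and genes are not independent replicates. Of all genes, 62.1% lay within 2-fold of the all-gene median. Just inside the root threshold stood AT1G69050 (3.00) and HSFA7A (3.00), and just outside it AT2G29500 (2.999) and ERD10 (2.998). Just inside the shoot threshold stood AT4G23770 (-3.001) and ABCB14 (-3.003), and just outside it CYP77B1 (-2.995) and PPD1 (-2.98).

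**Figure D1:**
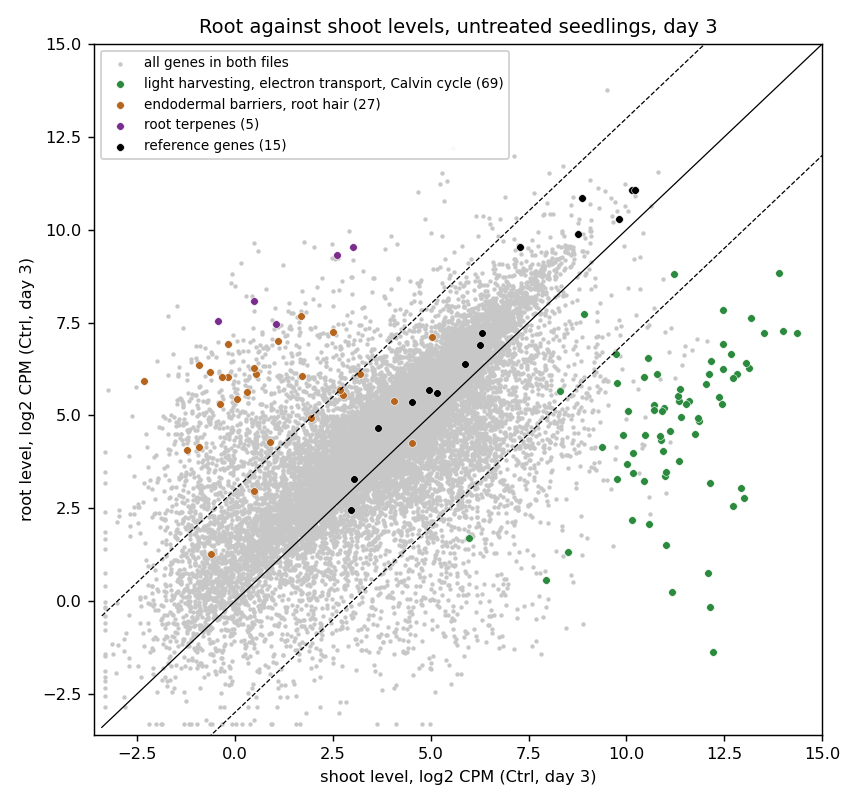
Level of each of the 18586 genes in Ctrl roots (vertical axis) and Ctrl shoots (horizontal axis) on day 3, in log2 CPM with levels floored at 0.1 CPM. Each point is 1 gene, the solid line marks equal levels and the dashed lines 8-fold differences. Of the 69 genes of light harvesting, electron transport and the Calvin cycle, all but RPI3, TKL1 and TIM lie beyond the right 8-fold line. The 5 root terpene genes lie above the cloud.

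The organ labels were checked with 9 root and 9 shoot marker genes. Of the root markers, 4 were in both tables. The others, among them EXPA7, PLT1, PLT2 and SMB, had a row only for roots and so no level for shoots. The 4 shared root markers summed to 281 CPM in roots and 40.5 CPM in shoots, of which SCR, a patterning factor of the ground tissue that is also active in leaves, contributed 36.7 CPM in shoots. Of the shoot markers, STM, FIL, FAMA and TMM had a row only for shoots, CLV3 had none, and the other 4 summed to 37501 CPM in shoots and 309 CPM in roots. Most of that shoot sum was LHCB1.3 (21065 CPM) and RBCS1A (16373 CPM). CER1 was also enriched in shoots (-3.63), and AS2 was higher there but short of 8-fold (0.609 CPM in roots, 3.92 CPM in shoots, -2.69). Apart from SCR, which was level, each shared marker was higher in the organ of its label. The sum of the shoot markers in roots was mostly LHCB1.3 (150.0 CPM) and RBCS1A (154 CPM). Their part in the other root values was not tested.

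Some members below are given with a regulatory sequence, to show where motifs known from light-regulated promoters lie in it. The 3 members shown are examples, and the motifs were chosen with earlier results of these data known. The 200 bases before the annotated gene start were read from the RefSeq annotation of TAIR10.1 for RBCS2B, a small subunit of Rubisco enriched in shoots, and for PER64 and PRP3, a Casparian strip peroxidase and a root hair cell wall protein enriched in roots. Capitals mark a G-box (CACGTG), an I-box (GATAAG or, on the other strand, CTTATC) or a TATA box (TATAAA or TTTATA). These motifs do not overlap in the 3 windows.
RBCS2B: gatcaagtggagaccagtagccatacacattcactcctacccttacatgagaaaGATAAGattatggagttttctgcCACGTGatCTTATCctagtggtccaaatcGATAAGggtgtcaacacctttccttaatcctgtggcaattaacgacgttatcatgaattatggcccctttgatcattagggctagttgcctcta
PER64: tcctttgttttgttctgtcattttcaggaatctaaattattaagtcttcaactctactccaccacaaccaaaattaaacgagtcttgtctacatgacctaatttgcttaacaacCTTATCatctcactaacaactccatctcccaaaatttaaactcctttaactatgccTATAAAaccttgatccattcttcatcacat
PRP3: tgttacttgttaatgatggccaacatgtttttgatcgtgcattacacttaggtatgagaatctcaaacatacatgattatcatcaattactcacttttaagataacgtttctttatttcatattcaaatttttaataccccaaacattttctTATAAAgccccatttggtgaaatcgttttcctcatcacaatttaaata
The RBCS2B window lies on the minus strand at chr5:15382072-15382271, that of PER64 on the plus strand at chr5:16852428-16852627 and that of PRP3 on the plus strand at chr3:23182522-23182721. In the RBCS2B window the G-box began at -123 from the gene start and I-boxes began at -146, -115 and -94. The PER64 window also held an I-box, which began at -86 on the other strand. The TATA box began at -30 before PER64 and at -48 before PRP3.

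Over the 18517 genes with such a window, 6.49% held a G-box on either strand. The share was 8.32% of the 913 windows of shoot-enriched genes and 5.64% of the 1224 of root-enriched genes. It was 4 of 18 for light harvesting, 5 of 30 for electron transport, 3 of 21 for the Calvin cycle and 0 of 18 for the endodermal barrier genes. The I-box was in 9.94% of all windows, in 15.7% of the shoot-enriched and in 10.1% of the root-enriched. By list it was in 3 of 18 for light harvesting, 8 of 30 for electron transport, 4 of 21 for the Calvin cycle and 2 of 18 for the endodermal barrier genes. A TATAAA box was in 39.3% of all windows, in 46.0% of the root-enriched and in 36.3% of the shoot-enriched. Of the motifs searched, the widest gap was for TGGGCC, the site II element known from ribosomal and cell cycle genes, which was in 16.2% of all windows and 14.6% of the shoot-enriched but in 4.33% of the root-enriched. The W-box TTGACC was in 10.3%, 9.53% and 12.01% of the same windows, and the evening element AAAATATCT in 2.06%, 3.18% and 1.88%. These matches are descriptions of letters in a window and were not tested.

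The light-harvesting list had the median farthest from 0 of the 23 lists as the tables stand. All 18 light-harvesting genes, whose proteins bind chlorophyll around the photosystems, and all 30 genes of the photosystems, plastocyanin, ferredoxin and ATP synthase were enriched in shoots, with list medians of -6.86 and -6.09 against 0.65 for all genes. Of the 21 genes of the Calvin cycle list, which includes the carbonic anhydrase CA1, 18 were enriched in shoots (median -6.48) and none in roots. Together these 69 genes took 26.0% of the summed CPM of shoots and 0.418% of that of roots. The median member stood in roots at 1.16% of its shoot level.

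Within the light-harvesting list the difference ran from -12.29 to -4.29. LHCB1.4, an antenna protein of photosystem II, was at 0.891 CPM in roots and 4471 CPM in shoots, a 5018-fold difference. LHCB2.4 was at 1.19 CPM in roots and 2277 CPM in shoots, LHCB1.1 at 6.90 and 8224 CPM, and LHCB1.2 at 8.26 and 7813 CPM. LHCB2.2 was at 9.04 CPM in roots and 4495 CPM in shoots. These 5 were at least 497-fold higher in shoots, whereas LHCB1.5 (456 and 15347 CPM) and LHCA4 (197 and 9307 CPM) differed 33.6-fold and 47.2-fold. LHCB4.3, a rarer isoform, was the least different, at 3.24 CPM in roots and 63.6 CPM in shoots. The transcripts of LHCB1.1, LHCB1.2 and LHCB1.3 are near copies, with at least 91.7% identity in the alignments found, and so are LHCB1.4 with LHCB1.5 (91.4%) and LHCB2.1 with LHCB2.2 (94.3%), so reads may have been split between them in ways the tables do not show. Summed, the 5 LHCB1 genes stood at 622 CPM in roots and 56921 CPM in shoots (-6.52), and the 3 LHCB2 genes at 49.9 and 12306 CPM (-7.95). LHCB2.4 also shares 40.6% of its transcript with a gene on the opposite strand.

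The photosystem and electron transport genes lay between -7.97 and -4.41. PSAH2 (4.50 CPM in roots, 1125 CPM in shoots), PSAE1 (13.7 and 2593 CPM) and PSAD2 (9.37 and 1403 CPM), subunits of photosystem I, and PETE1 (1.47 and 246 CPM), a plastocyanin that carries electrons to it, led the list. PSAL, another subunit, was at 28.9 CPM in roots and 3675 CPM in shoots. At the other end ATPC1, the gamma subunit of the chloroplast ATP synthase, was at 65.9 CPM in roots and 1401 CPM in shoots. PSAE1 and PSAG overlap unnamed genes on the opposite strand (33.0% and 61.4% of the transcript), whose own differences were -7.18 and -7.03.

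The Calvin cycle list had the widest range of the 23 lists, with CA1 at its lower end (-13.57) and TIM at its upper end (-1.19). CA1, a carbonic anhydrase of the chloroplast that is not an enzyme of the cycle itself, had the largest difference among all 18586 genes. It was at 0.390 CPM in roots and 4753 CPM in shoots. The Rubisco small subunit genes differed in their root trace, as RBCS2B was at 1.68 CPM in roots and 4317 CPM in shoots. RBCS3B was at 5.86 and 6757 CPM and RBCS1B at 2.84 and 2061 CPM. RBCS1A, on chromosome 1, was at 154 CPM in roots and 16373 CPM in shoots (-6.73). The 3 B genes share up to 94.4% of their bases in the alignments found, and their sum was 10.4 CPM in roots and 13135 CPM in shoots. FBA1, an aldolase of the plastid, was at 4.23 CPM in roots and 1530 CPM in shoots. The members that did not pass 8-fold were RPI3 (-2.66), TKL1 (-2.41) and TIM (-1.19), an isomerase, a transketolase and a triosephosphate isomerase that also serve plastid sugar metabolism outside the cycle.

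**Figure D2:**
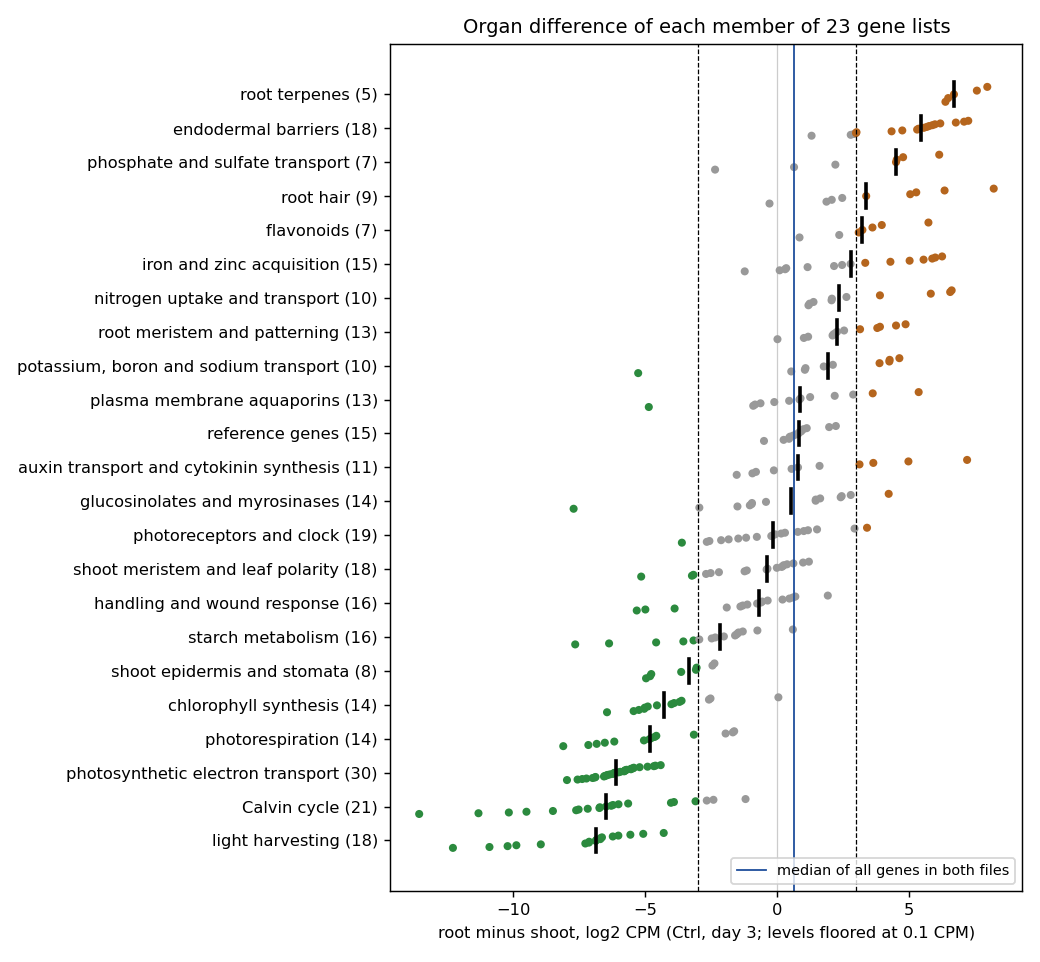
Root minus shoot difference (log2 CPM, horizontal axis) of every member of the 23 gene lists found in both tables, with the number of members in brackets. Points are genes, green where at least 8-fold higher in shoots and brown where at least 8-fold higher in roots, black bars are list medians, dashed lines mark 8-fold and the blue line the median of all genes (0.65). Photosynthesis lists sit at the lower left, terpene and endodermal lists at the upper right, and the reference genes near the blue line.

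Photorespiration, which recycles the product of oxygen uptake by Rubisco, followed the same side, with 11 of 14 genes enriched in shoots and a median of -4.80. GOX1, a glycolate oxidase of the peroxisome, was at 7.54 CPM in roots and 2078 CPM in shoots. PGLP1 (AT5G36790), the phosphatase that opens the pathway, was at 0.776 and 110 CPM, and it has a copy of 98.5% identity. GLU1, the leaf ferredoxin-dependent glutamate synthase that recovers the ammonium, was at 19.4 and 2217 CPM. GDCH, a subunit of glycine decarboxylase, was at 4.93 and 456 CPM, and HPR, the hydroxypyruvate reductase, at 18.6 and 1340 CPM. The genes short of 8-fold were CAT2 (-1.95), GLYK (-1.67) and GLDP2 (-1.62). For the sum of GOX1 and GOX2, neighbouring genes, the difference was -5.79.

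Chlorophyll synthesis had 11 of its 14 shared genes enriched in shoots (median -4.28). GUN4, a cofactor of magnesium chelatase, was at 3.75 CPM in roots and 327 CPM in shoots, although 73.0% of its transcript overlaps a gene on the opposite strand. PORC, a light-dependent protochlorophyllide reductase, was at 6.74 and 292 CPM, and PORB, its sister, at 17.5 and 575 CPM. CRD1, which closes the fifth ring, was at 64.4 and 2431 CPM, and DVR at 4.31 and 139 CPM. HEMA2 was the only member above 0 (0.06). GLK1, an activator of these genes, and PORA had a row for shoots only, at 158 and 1.82 CPM, whereas GLK2, its sister activator, was at 17.5 CPM in roots and 262 CPM in shoots.

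Starch genes were less divided, with 5 of 16 enriched in shoots and a median of -2.18. They were BAM3, the beta-amylase of nightly starch breakdown (0.950 and 191 CPM), GBSS1, which makes amylose (1.39 and 115 CPM), APL1, a subunit of ADP-glucose pyrophosphorylase (18.3 and 438 CPM), SS3 (9.60 and 112 CPM) and PGM1 (20.2 and 181 CPM), root before shoot in each pair. PGI1, the plastid phosphoglucose isomerase, was the only member above 0 (0.61), and it fell below 0 (-0.05) with the all-gene median set to 0.

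The 52 genes encoded in the chloroplast had a median of -2.94, from -5.68 to -0.92, and 25 of them were enriched in shoots. They summed to 25.1 CPM in roots and 305 CPM in shoots, in libraries prepared for messenger RNA. The 15 mitochondrial genes had a median of 0.58, and none passed 8-fold. The mitochondrial median differed in other libraries, being -0.08 in Ti seedlings on day 3 and 2.17 in Ctrl on day 10. The chloroplast median was almost the same in Ti seedlings on day 3 (-2.95) and nearer to 0 in Ctrl on day 10 (-1.41).

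Leaf surface genes marked the shoot as well. Of 18 listed genes for the shoot epidermis and stomata, 8 were shared, 6 of these were enriched in shoots (median -3.35) and 10 had a row for shoots only. MYB60, a guard cell factor, was at 0.419 CPM in roots and 13.1 CPM in shoots. CUT1, an elongase for cuticular wax, was at 9.41 and 264 CPM, and ATML1, the factor that specifies epidermis, at 5.52 and 150 CPM. CER1, a wax alkane enzyme, was at 4.79 and 59.4 CPM, and FDH, an epidermal elongase, at 33.0 and 277 CPM. The stomatal lineage regulators SPCH, MUTE and FAMA, their receptor-like partner TMM, the ligands EPF1, EPF2 and STOMAGEN and the protease SDD1 were all among the genes with a shoot row only, at 1.63 to 23.6 CPM.

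Shoot meristem and leaf polarity genes did not separate as a list, since 3 of 18 shared genes were enriched in shoots (median -0.37). The 3 were TCP10 (1.26 CPM in roots, 44.7 CPM in shoots), TCP3 (5.54 and 51.7 CPM) and TCP2 (5.61 and 50.4 CPM), growth-limiting factors of the leaf blade. The YABBY genes FIL, YAB2, YAB3 and YAB5, which mark the lower side of leaves, had shoot rows only, between 14.9 and 45.7 CPM. The other 15 shared genes did not pass 8-fold. Among them were the polarity genes KAN (0.18), KAN2 (-0.36), PHB (83.6 CPM in roots and 63.9 CPM in shoots) and REV (75.5 and 37.9 CPM). WUS and CLV3, active in few cells, were in neither table.

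The root side was led by specialised metabolism and barriers. All 5 shared root terpene genes were enriched in roots, with a median of 6.72. THAD, THAS1 and THAH, neighbours in the thalianol cluster that makes triterpenes, were at 187, 269 and 175 CPM in roots and at 0.740, 1.399 and 2.08 CPM in shoots. TPS27 and TPS-CIN, neighbouring cineole synthases, were at 639 and 738 CPM in roots and at 6.07 and 8.16 CPM in shoots, and their sum differed 96.8-fold. The marneral genes MRN1, MRO and CYP705A12 and the triterpene synthase BARS1 had a root row only, at 0.418 to 33.0 CPM.

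Endodermal barrier genes were enriched in roots in 15 of 18 shared cases (median 5.48), and none was below 0. For the Casparian strip, PER64, the peroxidase whose promoter is printed above, was at 81.5 CPM in roots and 0.531 CPM in shoots, and the scaffold protein CASP1 at 122 and 0.890 CPM. CASP4 and CASP5 had root rows only, at 26.7 and 9.24 CPM. For suberin, ABCG6, a transporter of its monomers, was at 71.4 and 0.645 CPM, FAR4, a fatty alcohol reductase, at 65.2 and 0.888 CPM, and CYP86A1, a fatty acid hydroxylase, at 205 and 3.21 CPM. ESB1, a dirigent protein of the strip, lay at the threshold (30.7 and 3.84 CPM, 3.00), and 83.7% of its transcript overlaps AT2G28671 on the opposite strand, which was at 184 and 3.10 CPM. FAR1, SGN3 and ABCG2 stayed short of 8-fold (1.32, 2.80 and 2.92).

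Of the 23 root hair genes, 14 had a root row only, among them the master regulators RHD6 and RSL4 and the expansins EXPA7 and EXPA18. Of the 9 shared genes, 5 were enriched in roots. PRP3 was at 60.3 CPM in roots and 0.201 CPM in shoots, a 300-fold difference. RHD2, the NADPH oxidase of the growing tip, was at 65.0 and 0.790 CPM, ADF8 at 16.7 and 0.428 CPM, LRX2 at 17.6 and 0.529 CPM and COW1 at 19.4 and 1.86 CPM. GL2, which blocks hair fate in roots and promotes leaf trichomes, was the only shared member below 0, at 19.0 CPM in roots and 23.04 CPM in shoots. With the all-gene median set to 0 the COW1 difference fell to 2.74, short of 8-fold.

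Root meristem and patterning genes were split between the tables too, with 9 of 22 in the root table only. These included PLT1 and PLT2, which maintain the stem cells, WOX5 of the quiescent centre, and the root cap factors SMB, BRN1, BRN2 and FEZ. Of the 13 shared genes, 5 were enriched in roots, namely MGP (17.8 and 0.603 CPM), WER (10.96 and 0.478 CPM), MYB36 (13.8 and 0.919 CPM), UPB1 (13.4 and 0.959 CPM) and LRP1 (16.6 and 1.86 CPM). MYB36 switches on Casparian strip genes, and WER specifies hairless epidermal cells. SCR was level between the organs, at 37.2 CPM in roots and 36.7 CPM in shoots. LRP1 fell to 2.50 with the all-gene median set to 0.

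Nutrient uptake genes were on the root side to differing degrees. For nitrogen, 4 of 10 shared genes were enriched in roots (median 2.36) and none was below 0. The ammonium transporter AMT1;3 was at 191 CPM in roots and 1.92 CPM in shoots and the nitrate transporter NRT2.1 at 102 and 1.07 CPM. NRT1.5, which loads nitrate into the xylem, was at 913 and 16.0 CPM, and WR3, the partner protein of NRT2.1, at 144 and 9.55 CPM. The other 6 genes lay between 1.197 and 2.64, among them NRT1.1 at 368 CPM in roots and 87.4 CPM in shoots.

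For phosphate and sulfate, 4 of 7 shared genes were enriched in roots (median 4.52). PHT1;1, a phosphate importer, was at 576 CPM in roots and 8.07 CPM in shoots, and PHO1, which exports phosphate to the xylem, at 418 and 17.9 CPM. The sulfate importers SULTR1;1 and SULTR1;2 were at 6.69 and 411 CPM in roots and at 0.242 and 17.9 CPM in shoots. SULTR2;1, a vascular sulfate transporter, was the only member below 0, at 30.6 CPM in roots and 155 CPM in shoots. With a floor of 1 CPM the difference of SULTR1;1 fell to 2.74.

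Potassium, boron and sodium genes included members enriched on each side. SKOR, the channel that releases potassium into the xylem, was at 39.9 CPM in roots and 1.59 CPM in shoots. NIP5;1, a boric acid channel, was at 86.8 and 4.47 CPM, the uptake channel AKT1 at 172 and 8.92 CPM and its partner subunit KAT3 at 98.7 and 6.63 CPM. AKT2, a phloem potassium channel, went the other way, at 0.934 CPM in roots and 35.9 CPM in shoots.

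In the iron and zinc list, 7 of 15 shared genes were enriched in roots (median 2.80). FIT, the regulator of the iron deficiency response, was at 70.7 CPM in roots and 0.918 CPM in shoots. Its targets IRT1, the iron importer, and FRO2, the ferric reductase, were at 151 and 102 CPM in roots and 2.35 and 3.10 CPM in shoots. ABCG37, which exports coumarins, was at 395 and 6.65 CPM, and FRD3, which loads citrate into the xylem, at 45.1 and 0.953 CPM. The coumarin enzymes F6H1, S8H and CYP82C4 and the importer IRT2 had root rows only. OPT3, a phloem iron transporter, was the only shared member below 0 (85.5 and 199 CPM). The shoot ferric reductase FRO6 was among the 10 genes with the largest differences towards shoots, at 0.654 CPM in roots and 473 CPM in shoots.

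Flavonoid genes were also on the root side, with 5 of 7 shared genes enriched in roots and a median of 3.24. MYB12, the activator of flavonol synthesis, was at 43.5 CPM in roots and 0.808 CPM in shoots. CHS, the chalcone synthase that opens the pathway, was at 1877 and 119 CPM, FLS1, the flavonol synthase, at 319 and 25.9 CPM, TT5 at 189 and 19.95 CPM and F3H at 230 and 26.7 CPM. DFR and LDOX, which lead on to anthocyanin, and the activator MYB111 had shoot rows only, at 8.03, 8.59 and 2.49 CPM. With the all-gene median set to 0, TT5, F3H and FLS1 fell to 2.59, 2.45 and 2.97, short of 8-fold, and CHS and MYB12 remained past it.

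Several lists held opposite members. Among the 13 plasma membrane aquaporins, water channels of the PIP family, PIP2;4 (160 CPM in roots, 3.83 CPM in shoots) and PIP2;2 (1133 and 91.2 CPM) were enriched in roots and PIP2;6 (8.01 and 233 CPM) in shoots, with the list median (0.86) close to that of all genes. PIP2;2 fell to 2.98 with the all-gene median set to 0. Among the glucosinolate genes, CYP79F1, which starts aliphatic glucosinolates, was at 0.515 CPM in roots and 108 CPM in shoots. PYK10, the beta-glucosidase of the root ER bodies, was at 13764 CPM in roots and 728 CPM in shoots. In the tryptophan branch CYP79B2 (2.46), CYP79B3 (2.42), CYP83B1 (1.47) and the activator MYB34 (2.80) were above the all-gene median and the activator MYB51 (-0.95) below it, none past 8-fold. In the aliphatic branch MAM1 (-2.94), CYP83A1 (-1.50), the activator MYB28 (-1.03) and BCAT4 (-0.96) were below it and CYP79F2 (1.47) above it, again none past 8-fold. The list median of 0.53 turned to -0.12 with the all-gene median set to 0.

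Among auxin transport and cytokinin genes, PIN2, an auxin exporter of the root epidermis, was at 143 CPM in roots and 0.960 CPM in shoots. IPT5, a cytokinin synthase, was at 40.03 and 1.26 CPM, the auxin importer LAX3 at 133 and 10.6 CPM and the cytokinin exporter ABCG14 at 98.7 and 11.2 CPM. These 4 of 11 shared genes were enriched in roots and none in shoots. PIN4 (-1.53), PIN7 (-0.93) and PIN3 (-0.80) lay on the other side of 0, short of 8-fold, and ABCG14 fell to 2.48 with the all-gene median set to 0. CYP735A1 and CYP735A2, which make the trans-zeatin form carried in the xylem, had root rows only.

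The 19 photoreceptor and clock genes were all found in both tables, and 17 of them did not pass 8-fold. PHOT2, a blue light receptor for chloroplast movement, was at 26.4 CPM in roots and 321 CPM in shoots, and ELF4, an evening clock protein, at 60.7 and 5.67 CPM. Clock genes of the morning lay below 0, namely CCA1 (-2.56), LHY (-1.83), PRR7 (-1.47) and RVE8 (-1.17). The evening genes ELF4 (3.42), ELF3 (1.52), LUX (1.18) and TOC1 (1.02) lay above it and above the all-gene median. GI, also an evening gene, was at 0.79, above 0 and above the all-gene median. The other PRR genes, PRR9 (-0.07) and PRR5 (-0.21), were near 0 and did not clearly follow this order. These groups were named after their values were seen. The hour of harvest of each organ was not given in the sources used here, and its part in these values was not tested. ELF4 fell to 2.77 with the all-gene median set to 0.

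The handling and wound response list, of touch, cold and wound genes, had 3 of 16 shared genes enriched in shoots and none in roots (median -0.68). TCH4, a touch-induced cell wall enzyme, was at 2.93 CPM in roots and 93.1 CPM in shoots, and TCH3, a calmodulin-like protein, at 2.46 and 98.0 CPM. WRKY40, a stress-induced regulator, was at 0.714 and 10.5 CPM.

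Isoform pairs gave a contrast within the same enzyme. There were 14 pairs of genes for 1 enzyme or transporter. In each, 1 member was assigned to leaves or plastids and the other to roots or the cytosol when the pairs were chosen. Both members were in both tables for 11 pairs. Ferredoxin FD2 was at 69.5 CPM in roots and 1768 CPM in shoots and FD3 at 213 and 20.1 CPM. The reductases that pass electrons between ferredoxin and NADP followed, as FNR1 and FNR2 differed by -4.91 and -6.17 and their root counterparts RFNR1 and RFNR2 by 1.8002 and 3.62. Further along the use of reduced ferredoxin, GLU1 differed by -6.84 and GLU2, at 462 CPM in roots and 48.0 CPM in shoots, by 3.26. For glutamine synthetase, the plastid GLN2 was at 165 and 2246 CPM and the cytosolic GLN1;1 at 421 and 73.2 CPM. All 5 members known from leaves were enriched in shoots, and RFNR1 and GLN1;1 stayed short of 8-fold towards roots.

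The widest pair beside these was phosphoenolpyruvate carboxylase, with PPC2 at 71.6 CPM in roots and 597 CPM in shoots and PPC3 at 713 and 14.2 CPM. Proton pump AHA1 was at 791 and 541 CPM and AHA2 at 2020 and 198 CPM, both above 0 (0.55 and 3.35), with AHA1 just under the all-gene median. Members of 2 pairs were both on the shoot side. CAT2 and CAT1, both catalases, differed by -1.95 and -1.43, so the assignment of CAT1 to roots had no backing here. HCEF1 and CYFBP, the plastid and cytosolic fructose bisphosphatases, differed by -6.48 and -4.27, CYFBP being at 25.2 CPM in roots and 487 CPM in shoots. TIM and CTIMC, plastid and cytosolic triosephosphate isomerases, stayed short of 8-fold (-1.19 and 0.91). HEMA1 (-3.62) and HEMA2 (0.06), which start the making of tetrapyrroles, did not straddle the all-gene median. The myrosinases TGG1 (2308 CPM) and TGG2 (514 CPM) had shoot rows only and TGG4 (63.1 CPM) and TGG5 (63.4 CPM) root rows only, as did the guard cell channel KAT1 for shoots (20.9 CPM). With the all-gene median set to 0, FD3, GLU2, AHA2 and RFNR2 fell to 2.76, 2.61, 2.70 and 2.97, with no change of side. PPC2 lay at -2.999 when both columns were scaled to the same sum over the shared genes.

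**Figure D3:**
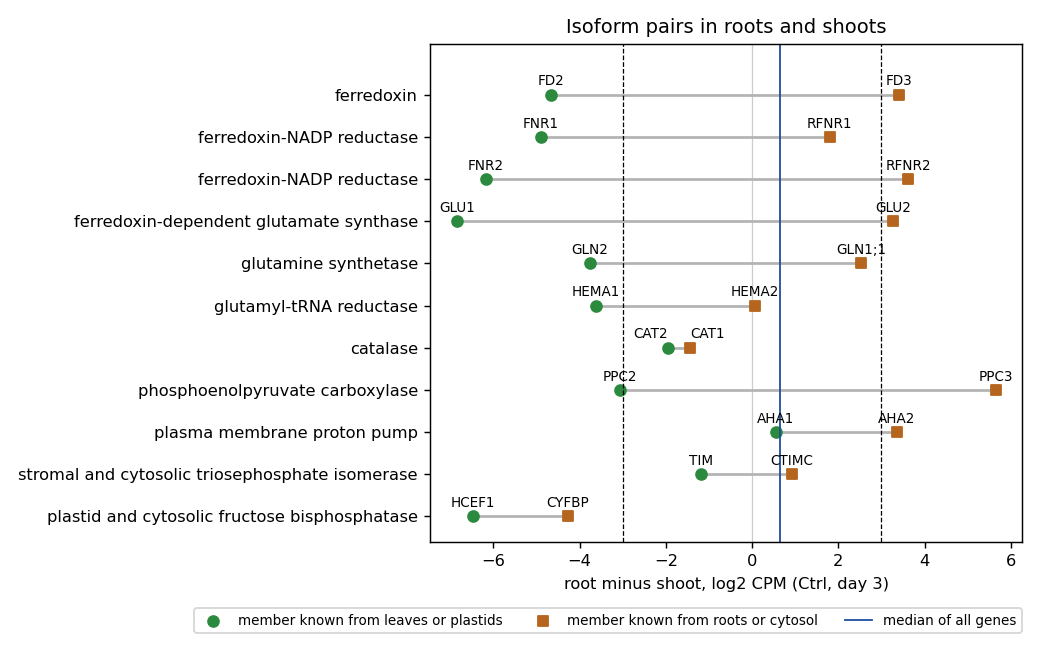
Root minus shoot difference (log2 CPM, horizontal axis) of the members of the 11 isoform pairs found in both tables. Green circles are the members assigned to leaves or plastids and brown squares those assigned to roots or the cytosol, joined by a line. Most pairs straddle 0, whereas both catalases and both fructose bisphosphatases lie to its left and both proton pumps to its right.

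Over all shared genes with at least 10 CPM in the higher organ, the 10 largest differences towards shoots were CA1, LHCB1.4, RBCS2B, LHCB2.4, LHCB1.1, RBCS3B, LHCB1.2, RBCS1B, FRO6 and ESM1. ESM1, a GDSL lipase-like protein that steers glucosinolate breakdown, was at 0.373 CPM in roots and 226 CPM in shoots. The 10 largest towards roots were led by TIP2;3, a tonoplast aquaporin, at 248 CPM in roots and 0.359 CPM in shoots. AT4G15160, annotated as a lipid-transfer family member, was at 204 and 0.305 CPM. The proline-rich extensin-like genes AT3G28550 and AT1G23720, for cell wall proteins, were at 801 and 685 CPM in roots and at 1.402 and 1.51 CPM in shoots. The peroxidases AT3G01190 and AT4G30170 were at 447 and 381 CPM in roots and 0.946 and 0.929 CPM in shoots. BGLU21 and BGLU22, beta-glucosidases 90.3% identical to each other, were at 548 and 358 CPM in roots and at 1.11 and 1.00 CPM in shoots. SBP3, a selenium-binding protein, was at 51.8 and 0.105 CPM, and the dehydrogenase-like SDR4 at 164 and 0.402 CPM.

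Genes with the same product name in the reference annotation were then counted, for the 137 product names with at least 12 shared genes. Names had to match letter by letter, so AT4G30170 (8.68), named a peroxidase family protein, was not counted with the peroxidase superfamily. Genes named as peroxidase superfamily proteins, mostly cell wall peroxidases but also the alpha-dioxygenase DOX1 (5.48), had 25 of 35 members enriched in roots and none in shoots (71.4% against 6.59% of all genes), with a median of 5.201. They ran from AT3G01190 (8.88) to AT1G71695 (-2.63). Dirigent-like proteins, which guide lignan and lignin coupling, had 11 of 14 enriched in roots (78.6%). Lipid-transfer proteins had 15 of 31 in roots and 4 in shoots, and the C1 domain family, rich in cysteine and histidine, 16 of 48 in roots and 2 in shoots. FAD-binding berberine family genes had 5 of 15 in roots and none in shoots.

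Fewer product names led in shoots. The FKBP-like isomerases, folding helpers of which several are known from the thylakoid lumen, had 6 of 12 enriched in shoots (50.0% against 5.05% of all genes) and none in roots, with a median of -2.96. GDSL lipases had 8 of 31 in shoots and 3 in roots, without ESM1 (-9.24), whose product name is lettered differently. The CC-NBS-LRR class of disease resistance proteins had 6 of 22 in shoots and 2 in roots. In that class RPP8 was at 6.08 CPM in roots and 109 CPM in shoots, and AT1G58400 at 22.4 and 1.45 CPM. AT1G58807 and AT1G59124 shared the same values in both tables (8.00 and 117 CPM), so they may not count as 2 independent members. Family members outside the lists, pairs and largest differences were not searched for near-identical copies, so other members may not be independent either. The TIR-NBS-LRR class had 8 of 47 in shoots and 7 in roots.

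**Figure D4:**
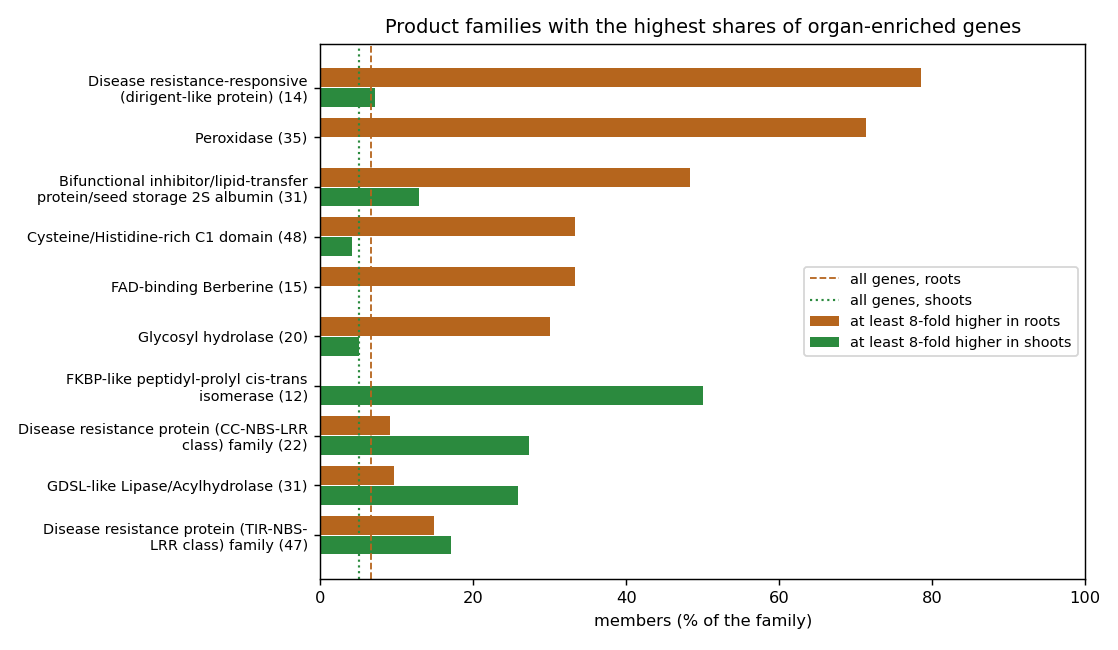
Share of the members (horizontal axis, percent) of 10 product families enriched at least 8-fold in roots (brown) or shoots (green), with the number of members in brackets. The families are the 6 with the highest root share and the 4 with the highest shoot share, and the dashed and dotted lines mark the shares of all genes (6.59% and 5.05%). Dirigent-like proteins and peroxidases reach 78.6% and 71.4% in roots, and FKBP-like isomerases 50.0% in shoots.

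The same organ difference was read in other libraries of the series, the Ti seedlings on day 3 and the Ctrl seedlings on day 10, as the measure of spread at hand. The gap between the Ti and the Ctrl difference on day 3 had a robust SD over genes of 0.17, and the gap between days 10 and 3 in Ctrl of 0.52. The first holds any effect of Ti, and it was 0.12 for genes with at least 10 CPM in both organs. Genes with low shoot levels could move far more. Among the 10 largest towards roots, AT1G23720 went from 8.83 in Ctrl to 12.29 in Ti and TIP2;3 from 9.43 to 11.28. SBP3 (8.945 and 8.928) and AT4G15160 (9.38 and 8.88) moved less. At least 8-fold differences in Ti seedlings numbered 1280 towards roots (6.89%) and 941 towards shoots (5.06%). Of the 1224 root-enriched genes 1152 were also enriched in Ti roots, which is 94.1% of these and 90% of the Ti calls, and of the 939 shoot-enriched genes 881 were shared (93.8% and 93.6%). On day 10 the calls were 1348 towards roots (7.25%) and 728 towards shoots (3.92%). Here 1023 root calls (83.6% of day 3, 75.9% of day 10) and 651 shoot calls (69.3% and 89.4%) were shared with day 3. No gene was enriched in 1 organ on day 3 and in the other organ in either comparison.

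The medians of 21 of the 23 lists kept their sign on day 10. The handling and wound response list went from -0.68 to 0.98, and the photoreceptor and clock list, close to 0 on both days, from -0.15 to 0.26. The photosynthesis medians were nearer to 0 on day 10, at -5.92 for light harvesting, -5.48 for electron transport and -5.84 for the Calvin cycle. The starch median went from -2.18 to -1.37 and that of auxin transport and cytokinin synthesis from 0.80 to 1.801. In Ti seedlings the terpene median was 8.72 against 6.72 in Ctrl, and the endodermal median 6.36 against 5.48.

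**Figure D5:**
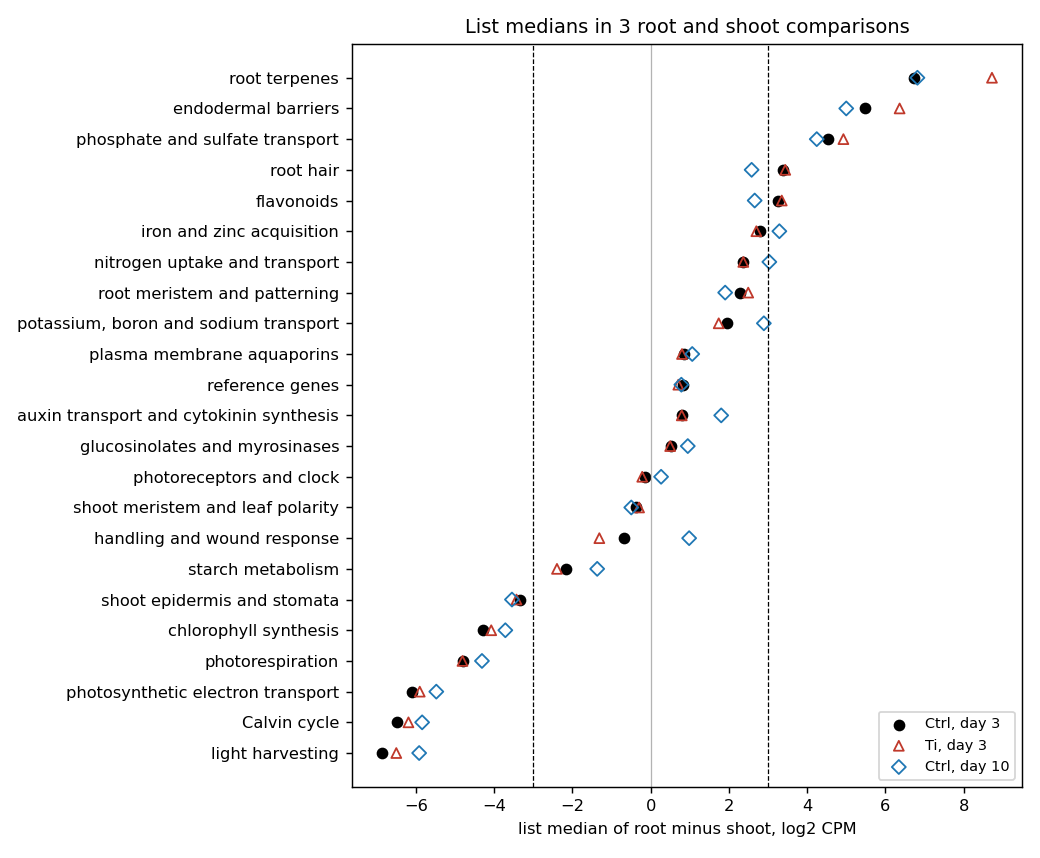
Median root minus shoot difference (log2 CPM, horizontal axis) of each of the 23 gene lists in Ctrl seedlings on day 3 (black circles), Ti seedlings on day 3 (red triangles) and Ctrl seedlings on day 10 (blue diamonds). The order of the lists is that of Ctrl on day 3, and dashed lines mark 8-fold. The terpene list stands further right in Ti (8.72) than in Ctrl (6.72), and the handling and wound list and the photoreceptor and clock list change side on day 10.

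The wider terpene and endodermal differences in Ti seedlings went with lower levels of root genes in Ti shoots. Among the 253 root-enriched genes of at least 100 CPM in Ctrl roots, the median level in shoots was 3.18% of the root level in Ctrl and 2.28% in Ti. The tenth percentile of these shares was 0.711% in Ctrl shoots, 0.209% in Ti shoots and 0.691% in Ctrl shoots on day 10. IRT1 differed by 6.01 in Ctrl and 10.93 in Ti, and BGLU21 by 8.95 and 12.23. In the other direction, 66 of the 69 photosynthesis genes had a difference nearer to 0 in Ti than in Ctrl, compared with 626 of the 939 shoot-enriched genes (66.7%). Over all genes, the root minus shoot difference was higher in Ti for 48.5%. The 939 genes were called on the same Ctrl difference, a choice that by itself favours values nearer to 0 in Ti. Most of the 69 genes passed that threshold too, so these shares were not tested against 48.5%. The median Ti minus Ctrl change of the 69 genes was 0.20 in roots and -0.06 in shoots on the log2 scale. Whether traces of 1 organ in the other take part in these values was not tested.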

How the data were processed

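Per the labels, total RNA of pooled Arabidopsis roots and shoots was sequenced from mRNA libraries, and the processing notes name FastQC 0.11.9, Trim Galore 0.6.6, kallisto 0.44.0 and edgeR for the authors' work. The authors deposited log2 CPM values per gene in a root and a shoot table, normalized separately, with 1 fitted value per group repeated over its 3 columns. The lowest deposited values were 0.00582 CPM in roots and 0.00552 CPM in shoots, and depth per library was not used here. Values were returned to CPM, set to at least 0.1 CPM and subtracted as log2, root minus shoot. With 1 value per group no test was run, and counts past 8-fold were read against those over all genes. The fixed rule named up to 5 members per list and direction past 8-fold, members on the opposite side of a list, all isoform pairs, and the 10 largest differences each way at 10 CPM or more. List members named outside the rule, and the product families shown, were chosen after their values were seen. The 23 lists (400 loci), the pairs and the motifs were chosen with earlier results of these data known, so list counts are descriptions. Loci were matched to the RefSeq annotation of TAIR10.1 for 18519 of 18586 genes, the other 67 being organelle genes. Near-identical copies were sought for 345 genes, those of the lists, the pairs and the 10 largest differences each way. Their reference transcripts were compared by blastn 2.17.0 (at least 90% identity over 60% of the shorter transcript), and 19 had such a copy. No copy sum took a gene back across 8-fold. Strand use in the quantification was not given in the sources used here, so overlapping genes on opposite strands are uncertain. Calculations used Python 3.11.15, numpy 2.4.6, pandas 2.3.3 and matplotlib 3.10.9, and the counting step was tested on simulated data. Alternatives covered scaling, floor, filter, pseudocount and fold. One listed gene is not reported here.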

Additional observations from a re-analysis of the deposited data

Results flagged for a closer look

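The organ difference changed side between day 3 and day 10 for the handling and wound response list, whose median was -0.68 in Ctrl on day 3, -1.31 in Ti on day 3 and 0.98 in Ctrl on day 10. The list holds touch, cold and wound genes that respond within minutes, and TCH3, TCH4 and WRKY40 were enriched in shoots on day 3 (-5.32, -4.99 and -3.88). ZAT10, a stress-induced zinc finger factor, was at 5.43 CPM in roots and 20.3 CPM in shoots on day 3 and at 157 and 61.4 CPM on day 10 (1.35). ERF6, an ethylene response factor, was at 6.45 and 16.8 CPM on day 3 and at 61.4 and 17.7 CPM on day 10 (1.79). CBF1, a cold response factor, was at 0.0650 CPM in roots on day 3, below the floor of 0.1 CPM, and at 0.245 CPM in shoots. Its day 3 difference (-1.29) was therefore taken from the floor. On day 10 CBF1 was at 4.13 and 1.32 CPM (1.65). OPT3, from the iron list, was at 85.5 and 199 CPM on day 3 and at 158 and 53.5 CPM on day 10 (1.56). Each group had 1 value, so none of these differences was tested. Over all genes, 58 of 18586 (0.312%) had differences of at least 1 with opposite signs on the 2 days, against 4 of the 321 shared list genes. CBF1, with its floored root level on day 3, is 1 of these 4.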

How the results depend on the processing

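No paired analysis was possible because the 3 columns of a group held the same values, and leaving out a replicate could not be run for the same reason. The count of root-enriched genes (1224) became 754 with the median of the reference genes set to 0 and 719 among genes with at least 1 CPM in both organs, 2340 at 4-fold and 675 at 16-fold. The count of shoot-enriched genes (939) became 1460 with the reference genes set to 0, 1598 at 4-fold and 523 at 16-fold. Every other alternative stayed within 1.5 times the reported counts, between 842 and 1256 for roots and between 696 and 1349 for shoots. The root share of the calls (56.6%) was 38.4% with the all-gene median at 0, 42.2% after quantile normalization, 34.1% with the reference genes at 0 and 50.8% to 58.2% with the other scaling, floor, filter and pseudocount. The medians of 23 lists kept their sign, except glucosinolates and myrosinases (-0.12 with the all-gene median at 0, -0.29 with the reference genes at 0) and auxin transport and cytokinin synthesis (-0.0206 with the reference genes at 0). For named genes the same alternatives were chosen after seeing the data. Of 120 past 8-fold, none changed sign, 12 fell short of 8-fold with the all-gene median at 0 and 14 with the reference genes at 0. Depth limits low levels, which had no error of their own.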
